A study of Mus musculus with 24 samples.

Results

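The genes described here are 8 genes of insulin signalling and insulin-stimulated glucose uptake: Insr, Irs1, Irs2, Pik3r1, Akt1, Akt2, Foxo1 and Slc2a4, the gene of the glucose transporter GLUT4. They were found by symbol, and each matched 1 of the 37310 gene entries that the deposited tables hold. The RNA came from primary cells of the stromal vascular fraction, the mixed non-adipocyte fraction of fat tissue, of 6-week-old C57BL/6 mice. Cells of inguinal white fat (WAT) and interscapular brown fat (BAT) were turned into adipocytes in culture while exposed to epigallocatechin gallate (EGCG), the main catechin of green tea, or to the solvent DMSO as the control.

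The groups were WAT day 4 control, WAT day 4 EGCG, WAT day 8 control, WAT day 8 EGCG, BAT day 4 control, BAT day 4 EGCG, BAT day 8 control and BAT day 8 EGCG, with 3 libraries in each of the 8 groups. All groups shared the induction medium with insulin, dexamethasone and the phosphodiesterase inhibitor IBMX up to day 4. The day 8 groups had then been kept in a medium with insulin and the thyroid hormone T3. Insulin was thus present in every group, there was no insulin-free control, and day and medium cannot be told apart. The labels give no dose of EGCG and do not say whether replicates were separate isolations of cells, so p-values measure only the spread between these samples, which may be technical.

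Insulin binds the receptor tyrosine kinase INSR, which phosphorylates the docking proteins IRS1 and IRS2. These recruit PI3-kinase through its regulatory subunits, and the lipid it makes brings the AKT kinases to the membrane, where AKT2 in particular drives GLUT4 vesicles to the cell surface of adipocytes and AKT keeps the transcription factor FOXO1 out of the nucleus. GLUT4 is made mainly in fat and striated muscle, and its messenger RNA appears late in the differentiation of adipocytes.

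Depth was 39452696 to 52893848 assigned reads per library in replicates 1 and 2, and 16392420 to 41675643 in replicate 3. In all but 1 library the 5 most abundant genes took 3.64 to 10.5% of the reads, but in WAT day 8 EGCG replicate 3 they took 61.0%, so that the FPKM (reads scaled to gene length and to the depth of the library) of every other gene is low in that library. Tests used replicates 1 and 2 only, which were deposited together, and replicate 3 is given as a description. The labelled depots matched 3 white depot genes (Hoxc9, Hoxc10, Hoxa9), with a summed FPKM of at least 8.89 in each WAT library and at most 1.18 in each BAT library, and 3 brown depot genes (Ucp1, Cidea, Zic1), with at least 6.69 in each BAT library and at most 0.332 in each WAT library. In BAT day 4 control, BAT day 4 EGCG and BAT day 8 EGCG only Zic1 reached a mean of 1 FPKM in replicates 1 and 2. The brown sum there was thus carried by Zic1, and all 3 brown depot genes reached 1 only in BAT day 8 control. Among the member genes the fewest reads behind a value were 50 in replicates 1 and 2 and 23 in replicate 3. Intervals cover counting error and the spread of the 2 tested libraries per group alone. That spread is 1 estimate per gene shared by all 8 groups and moderated over genes, so it can differ from the scatter of the groups compared.

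With EGCG, Slc2a4 and Pik3r1 fell in both depots on both days. Slc2a4 was 7.70-fold lower in WAT and 10.2-fold lower in BAT on day 4, and 73.1-fold and 79.7-fold lower on day 8, as ratios of the mean FPKM of 2 libraries. Insr fell in 3 of the 4 comparisons and Foxo1 fell on day 8 in both depots, whereas Akt1 rose on day 8 in both depots. A gene was called changed at an adjusted p under 0.05 in limma. In WAT on day 4, 5 of the 8 genes were called, all lower, where 53.7% of the 14095 genes tested were called, 19.3% lower and 34.4% higher. In WAT on day 8 there were 5 lower and 2 higher, against 63.6% called over all genes, 18.9% lower and 44.7% higher. In BAT on day 4 there were 5 lower and none higher, against 48.5% called over all genes, 20.6% lower and 27.9% higher. In BAT on day 8 there were 6 lower and 1 higher, against 72.6% called over all genes, 26.1% lower and 46.5% higher. The median log2 change of the 8 genes was -0.17, -0.49, -0.41 and -0.89 in these 4 comparisons, while that of all genes tested was 0.09, 0.17, 0.03 and 0.17. With median-ratio scaling, which sets the bulk of genes equal, the medians of all genes were between -0.02 and 0.02, and the members called lower became 5, 6, 5 and 7 and those called higher 0, 1, 0 and 1. Changes below are differences of log2(FPKM + 1), which understates changes of genes at low levels.

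**Figure D1:**
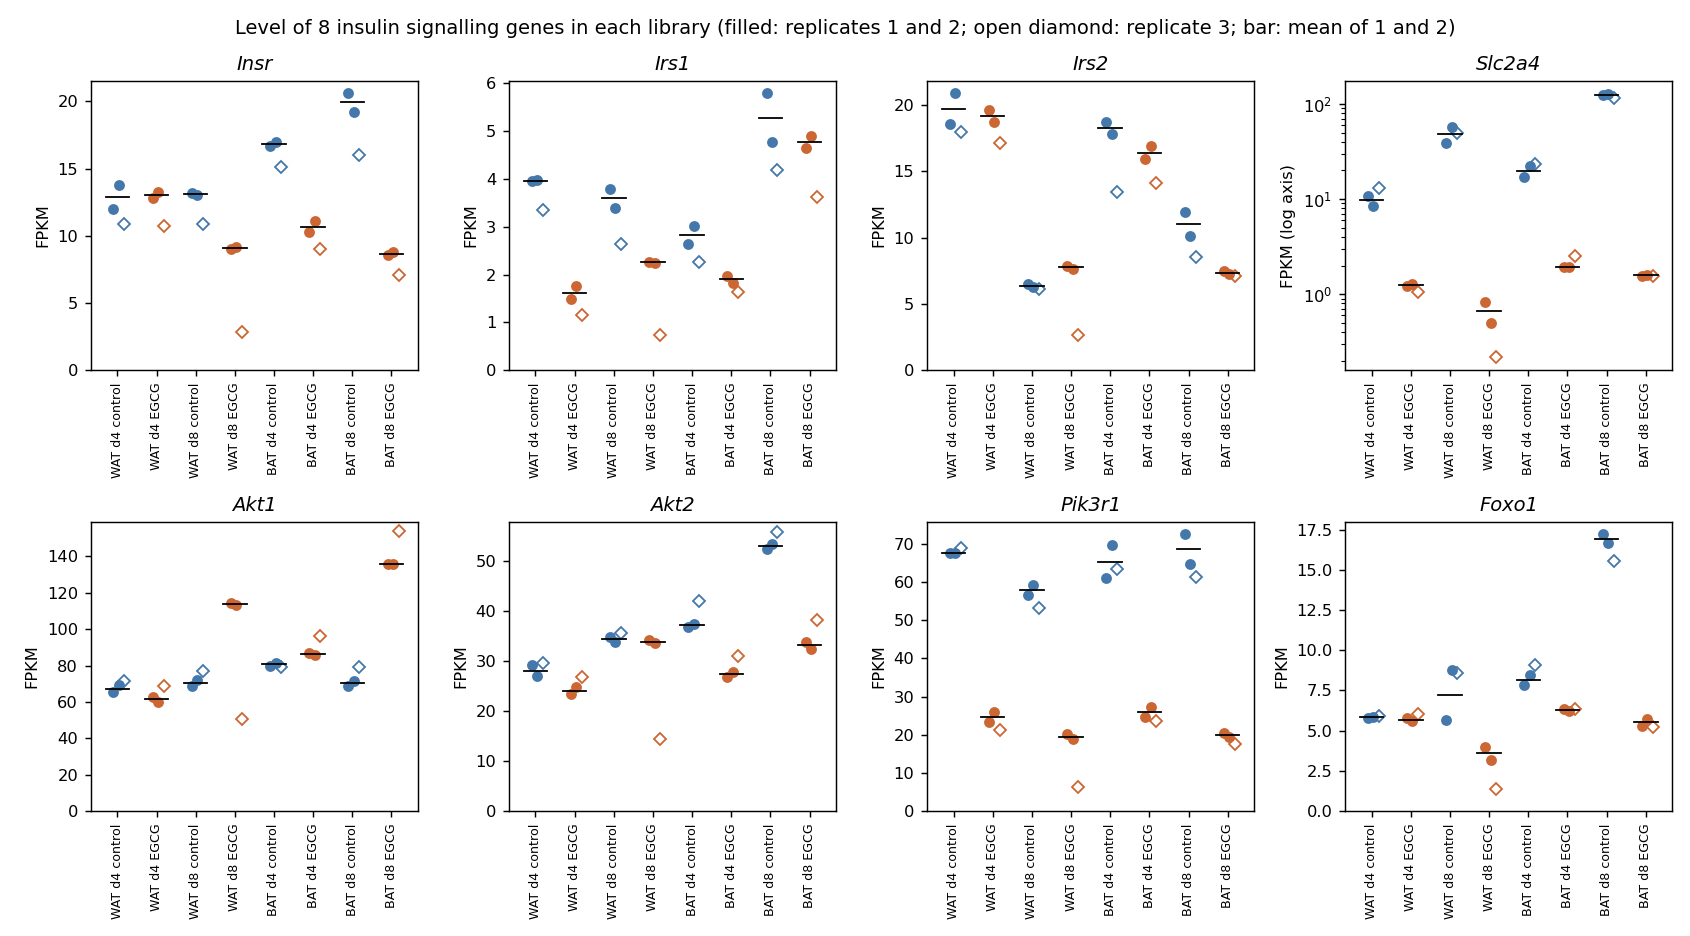
FPKM of each of the 8 genes (vertical axes, from 0, except for Slc2a4, which has a log axis) in the 24 libraries, by group on the horizontal axis. Filled circles are replicates 1 and 2, open diamonds replicate 3, bars the mean of replicates 1 and 2, blue control and orange EGCG. Slc2a4 lay between 8.55 and 127 in control libraries and between 0.219 and 2.53 in EGCG libraries, and the open diamond of WAT day 8 EGCG is low for every gene.

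Insr (ENSMUSG00000005534.8, mm9 chromosome 8, 3150922 to 3279617, minus strand) encodes the insulin receptor. In WAT on day 4 its FPKM was 11.98, 13.8 and 10.9 in the control replicates and 12.9, 13.3 and 10.7 with EGCG. These values overlapped, and the log2 difference of 0.02 (SE 0.06, limma adjusted p = 0.792) became -0.11 with median-ratio scaling. Insr in WAT on day 8 was at 13.2, 13.1 and 10.9 in control and at 9.04, 9.21 and 2.86 with EGCG, and it fell by 0.48 (SE 0.06, limma adjusted p = 3.02e-05). On day 4 BAT values were 16.7, 17.0 and 15.1 in control and 10.3, 11.1 and 9.05 with EGCG, and Insr fell by 0.61 (limma adjusted p = 7.81e-06). On day 8 they were 20.6, 19.3 and 16.04 in control and 8.57, 8.76 and 7.09 with EGCG, and Insr fell by 1.11 (limma adjusted p = 1.33e-08). In these 3 comparisons each control library was above each EGCG library, replicate 3 included. The order of the group means ran from BAT day 8 control at 19.9 down to BAT day 8 EGCG at 8.67, so that BAT cells of day 8 held both the highest and the lowest level. WAT day 8 control, WAT day 4 EGCG and WAT day 4 control were neighbours at 13.1, 13.1 and 12.9 whose libraries overlapped. Orders of groups here use the means of replicates 1 and 2, and neighbours are compared over those 2 libraries each.

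Irs1 (ENSMUSG00000055980.2, chromosome 1, 82229676 to 82287991, minus strand) and Irs2 (ENSMUSG00000038894.6, chromosome 8, 10986980 to 11008458, minus strand) encode the docking proteins of the receptor. Irs1 was the less abundant of the pair in all 8 groups. Irs1 in WAT on day 4 was at 3.95, 3.97 and 3.35 in control and at 1.50, 1.75 and 1.16 with EGCG, and it fell by 0.92 (SE 0.09, limma adjusted p = 5.90e-06), its largest change with EGCG. On day 8 in WAT it was at 3.79, 3.40 and 2.64 in control and at 2.27, 2.25 and 0.740 with EGCG, and it fell by 0.49 (limma adjusted p = 4.76e-04). BAT values on day 4 were 2.64, 3.01 and 2.27 in control and 1.98, 1.83 and 1.63 with EGCG, and Irs1 fell by 0.39 (limma adjusted p = 0.00335). On day 8 the BAT control values of 5.80, 4.77 and 4.18 overlapped the EGCG values of 4.65, 4.89 and 3.62. There the log2 difference was -0.12 (95% interval -0.32 to 0.08, limma adjusted p = 0.259), and with median-ratio scaling it was called at -0.28 (limma adjusted p = 0.0151). Leaving out control replicate 1 put it at 0.00072, and leaving out control replicate 2 at -0.24, which was called (limma adjusted p = 0.0488). The group means ran from 5.28 in BAT day 8 control down to 1.62 in WAT day 4 EGCG, and in replicates 1 and 2 only the first pair of neighbours in that order, both BAT groups of day 8, overlapped. With replicate 3 included every pair of neighbours in that order overlapped. WAT day 8 EGCG and BAT day 4 EGCG did so only through WAT day 8 EGCG replicate 3.

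Irs2 was set apart more by day than by EGCG. Its 4 groups of day 4 had mean FPKM values of 16.4 to 19.7 and its 4 groups of day 8 had 6.36 to 11.02, with no overlap between days in any replicate. In WAT on day 4 it was at 18.6, 20.9 and 17.98 in control and at 19.6, 18.7 and 17.2 with EGCG, and in BAT on day 4 at 18.8, 17.8 and 13.5 in control and at 15.9, 16.9 and 14.1 with EGCG. Neither difference was called, at -0.04 (95% interval -0.20 to 0.13, limma adjusted p = 0.694) and -0.15 (95% interval -0.31 to 0.02, limma adjusted p = 0.126). Irs2 in BAT on day 8 was at 11.9, 10.1 and 8.54 in control and at 7.51, 7.23 and 7.07 with EGCG, and it fell by 0.52 (SE 0.07, limma adjusted p = 5.29e-05). On day 8 in WAT it was at 6.48, 6.25 and 6.10 in control and at 7.85, 7.65 and 2.62 with EGCG. Replicates 1 and 2 were called higher by 0.25 (limma adjusted p = 0.0117), but all genes shifted by 0.17 there, and with median-ratio scaling the difference was 0.07 (limma adjusted p = 0.419). The call was also lost without EGCG replicate 1 or control replicate 2 (limma adjusted p = 0.0604 and 0.0561). The 3 WAT control and 3 EGCG values of day 8 after that scaling were 6.81, 6.63 and 6.69 against 7.10, 6.97 and 6.37, which overlapped.

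The ratio of Irs1 to Irs2 within a library does not depend on how libraries are scaled. In WAT it was 0.201 in control and 0.0850 with EGCG on day 4, and 0.565 and 0.292 on day 8, as means of replicates 1 and 2. In BAT it was 0.155 and 0.116 on day 4, and 0.479 and 0.648 on day 8. With EGCG the ratio was thus lower in both WAT comparisons and in BAT on day 4 and higher in BAT on day 8, in all 3 replicates of each. These ratios are descriptions and were not tested.

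Pik3r1 (ENSMUSG00000041417.8, chromosome 13, 102450716 to 102538172, minus strand) encodes the regulatory p85-alpha subunit of PI3-kinase and its shorter forms, which gene-level values do not separate. Its WAT values on day 4 were 67.7, 67.7 and 68.9 in control and 23.4, 25.9 and 21.3 with EGCG, and it fell by 1.42 (SE 0.08, limma adjusted p = 6.28e-08). Its WAT values on day 8 were 56.7, 59.2 and 53.2 in control and 20.3, 18.8 and 6.28 with EGCG, and it fell by 1.52 (limma adjusted p = 1.95e-08). Its BAT values on day 4 were 61.2, 69.7 and 63.5 in control and 24.7, 27.3 and 23.6 with EGCG, and it fell by 1.30 (limma adjusted p = 1.31e-07). Its BAT values on day 8 were 72.6, 64.7 and 61.5 in control and 20.5, 19.5 and 17.5 with EGCG, and it fell by 1.73 (limma adjusted p = 2.50e-09). All 12 control libraries lay between 53.2 and 72.6 and all 12 EGCG libraries at or below 27.3, whatever the depot or day. In the order of the 8 group means the 4 control groups, from 68.6 to 57.9, came before the 4 EGCG groups, from 26.0 to 19.5. Within each set of 4 the differences were small beside this gap, and 2 pairs of control neighbours and 2 pairs of EGCG neighbours overlapped.

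Promoter sequence is shown for the docking genes, because Irs1 and Irs2 moved apart, for Pik3r1, because it fell in every comparison, and for Foxo1, which has a single start. RefSeq promoters (build GRCm38.p6, another build than mm9) were given for 6 of the 8 genes with 11 starts in all; Insr and Slc2a4 were not among them. Each sequence is the 250 bases before a start, written 5′ to 3′ in the direction of the gene, with capitals where 1 of 6 searched motifs matched on either strand: CCAAT, the GC box GGGCGG, the E-box CANNTG, the forkhead core GTAAACA, the nuclear receptor core AGGTCA and the antioxidant response element core TGACNNNGC.
Irs1, chr1:82291440-82291689, minus strand: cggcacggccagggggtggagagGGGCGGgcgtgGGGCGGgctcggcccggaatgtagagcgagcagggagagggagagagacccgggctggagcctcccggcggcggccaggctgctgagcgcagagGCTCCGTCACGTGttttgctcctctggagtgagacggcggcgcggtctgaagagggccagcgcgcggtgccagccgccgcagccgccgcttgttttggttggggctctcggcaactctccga
Irs2, chr8:11008930-11009179, minus strand: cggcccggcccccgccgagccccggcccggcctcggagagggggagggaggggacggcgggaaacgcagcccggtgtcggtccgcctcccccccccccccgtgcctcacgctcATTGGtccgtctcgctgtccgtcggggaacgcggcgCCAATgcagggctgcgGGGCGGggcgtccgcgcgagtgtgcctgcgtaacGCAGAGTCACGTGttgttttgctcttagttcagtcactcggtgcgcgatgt
Pik3r1, outer start, chr13:101768218-101768467, minus strand: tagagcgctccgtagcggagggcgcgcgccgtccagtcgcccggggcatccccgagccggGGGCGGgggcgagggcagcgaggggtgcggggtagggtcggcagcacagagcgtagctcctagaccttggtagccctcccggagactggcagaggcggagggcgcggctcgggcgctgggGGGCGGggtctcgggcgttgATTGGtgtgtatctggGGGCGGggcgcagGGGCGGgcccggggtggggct
Pik3r1, inner start, chr13:101692631-101692880, minus strand: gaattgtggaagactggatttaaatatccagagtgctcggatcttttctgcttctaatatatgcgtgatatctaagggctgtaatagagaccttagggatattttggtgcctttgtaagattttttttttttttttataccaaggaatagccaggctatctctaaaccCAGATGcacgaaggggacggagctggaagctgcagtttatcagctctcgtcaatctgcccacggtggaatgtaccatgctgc
Foxo1, chr3:52268087-52268336, plus strand: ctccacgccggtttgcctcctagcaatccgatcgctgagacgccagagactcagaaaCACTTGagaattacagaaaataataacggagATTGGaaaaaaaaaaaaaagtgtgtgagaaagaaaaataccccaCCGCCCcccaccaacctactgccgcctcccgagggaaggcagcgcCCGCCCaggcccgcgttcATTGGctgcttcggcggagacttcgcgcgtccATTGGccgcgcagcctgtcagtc
In both Irs1 and Irs2 a match of TGACNNNGC, read on the opposite strand, overlapped a match of CANNTG in the form CACGTG. Of all 32851 windows of this length 10.2% held TGACNNNGC and 66.2% held CANNTG. The outer Pik3r1 start had 4 matches of GGGCGG and 1 of CCAAT, which 32.7% and 33.9% of all windows held at least once, and its inner start held neither. Foxo1 had 3 matches of CCAAT and 2 of GGGCGG. A match of GTAAACA (3.17% of all windows) or of AGGTCA (14.02%) was present at 1 of the 11 member starts, the outer start of Akt1, which held 1 of each. A match is a run of letters and not a measured binding site.

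Akt1 (ENSMUSG00000001729.7, chromosome 12, 113892032 to 113913095, minus strand) and Akt2 (ENSMUSG00000004056.8, chromosome 7, 28376571 to 28425845, plus strand) encode the 2 AKT kinases in this set. Akt1 is the form found in most cell types and tied to growth, and Akt2 is the one tied to glucose uptake. On day 8 they moved apart. Akt1 in WAT was at 68.8, 71.8 and 77.1 in control and at 114, 113 and 50.7 with EGCG, and replicates 1 and 2 rose by 0.69 (SE 0.04, limma adjusted p = 6.23e-08). The third EGCG library is the one dominated by 5 genes. With median-ratio scaling of all 24 libraries the values were 72.3, 76.2 and 84.5 against 103, 103 and 123, which did not overlap, and the fitted rise was 0.49. Akt1 in BAT on day 8 was at 68.8, 71.5 and 79.5 in control and at 136, 136 and 154 with EGCG, and it rose by 0.94 (limma adjusted p = 1.79e-09), or by 0.75 with median-ratio scaling.

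Akt2 in BAT on day 8 was at 52.3, 53.4 and 55.7 in control and at 33.8, 32.3 and 38.2 with EGCG, and it fell by 0.66 (SE 0.05, limma adjusted p = 9.81e-08). On day 8 in WAT it was at 34.7, 33.8 and 35.5 in control and at 34.1, 33.5 and 14.4 with EGCG. There the log2 difference was -0.02 (95% interval -0.12 to 0.08, limma adjusted p = 0.744). With median-ratio scaling, relative to the bulk of genes, it was called lower at -0.21 (limma adjusted p = 0.00214).

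On day 4 Akt1 in WAT was at 65.3, 69.3 and 71.5 in control and at 62.9, 59.9 and 68.7 with EGCG, and it fell by 0.13 (limma adjusted p = 0.0185) with groups that overlapped once replicate 3 was included. This call was lost without replicate 2 of either group, with an adjusted p of up to 0.155. In BAT Akt1 was at 79.8, 81.5 and 79.0 in control and at 86.8, 86.1 and 96.3 with EGCG, a difference of 0.10 (95% interval 0.01 to 0.19, limma adjusted p = 0.0694). That difference was called with quantile normalization (0.16, limma adjusted p = 0.00765) and with both tables and median-ratio scaling (0.09, limma adjusted p = 0.0469). Akt2 on day 4 fell in WAT by 0.21 (limma adjusted p = 0.00225), from 29.2, 26.9 and 29.5 to 23.4, 24.7 and 26.8. It fell in BAT by 0.43 (limma adjusted p = 1.33e-05), from 36.8, 37.4 and 42.0 to 26.8, 27.8 and 31.0.

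The ratio of Akt1 to Akt2 FPKM within a library, which compares genes per length, was above 1 in all 24 libraries. It was 2.41 ± 0.240 in WAT day 4 control and 2.56 ± 0.187 with EGCG (SD, n = 2), which overlapped. On day 8 in WAT it was 2.05 ± 0.0951 and 3.37 ± 0.0261, in BAT on day 4 it was 2.18 ± 0.00691 and 3.17 ± 0.104, and in BAT on day 8 it was 1.33 ± 0.0181 and 4.11 ± 0.127. In these 3 comparisons the ratio was higher in each EGCG library than in each control library, replicate 3 included. BAT day 8 thus held the lowest and the highest ratio of the 8 groups. Among group means Akt1 was highest in BAT day 8 EGCG at 136 and lowest in WAT day 4 EGCG at 61.4, with WAT day 8, BAT day 8 and WAT day 4 control overlapping in turn at 70.3, 70.2 and 67.3. Akt2 was highest in BAT day 8 control at 52.8 and lowest in WAT day 4 EGCG at 24.02, with WAT day 8 control, WAT day 8 EGCG and BAT day 8 EGCG overlapping in turn at 34.3, 33.8 and 33.1.

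**Figure D2:**
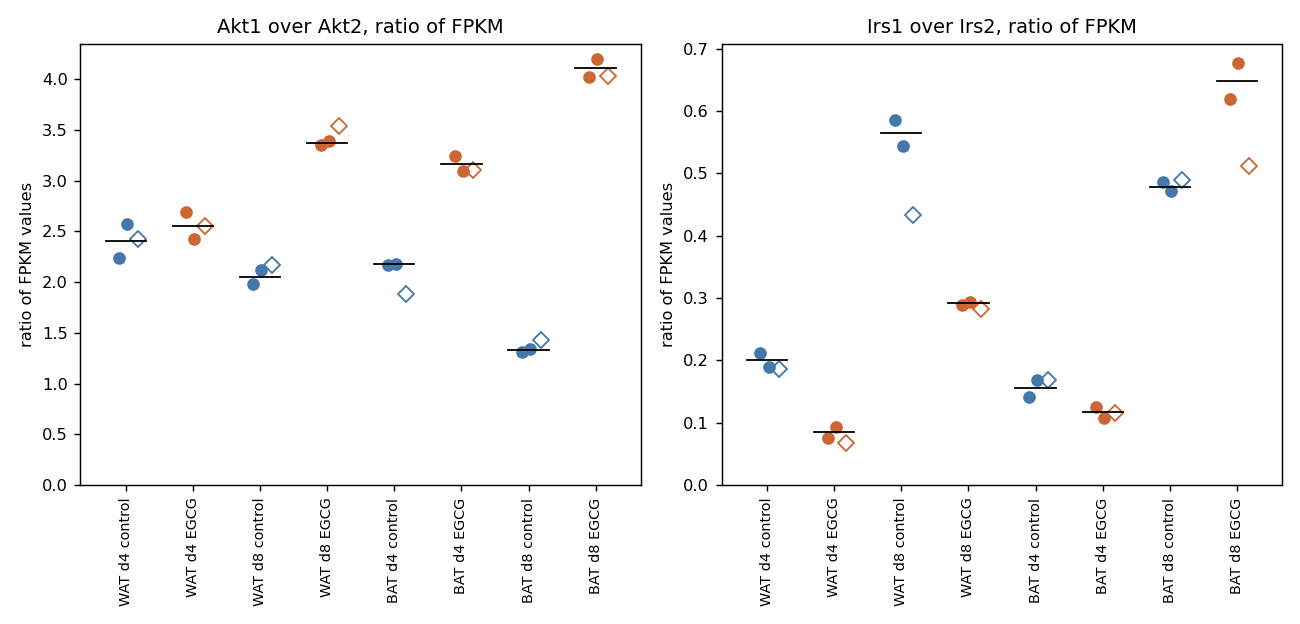
Ratio of FPKM of Akt1 over Akt2 (left) and of Irs1 over Irs2 (right) in each library, by group on the horizontal axis. Filled circles are replicates 1 and 2, open diamonds replicate 3, and bars the mean of replicates 1 and 2. The Akt1 to Akt2 mean goes from 1.33 to 4.11 with EGCG in BAT on day 8, and the third WAT day 8 EGCG library, low for single genes, lies beside its group in both ratios.

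Foxo1 (ENSMUSG00000044167.5, chromosome 3, 52072259 to 52154031, plus strand) encodes a transcription factor that AKT holds outside the nucleus. On day 4 in WAT it was at 5.79, 5.83 and 5.90 in control and at 5.76, 5.59 and 6.05 with EGCG, which overlapped, a difference of -0.03 (95% interval -0.34 to 0.28, limma adjusted p = 0.872). On day 8 in WAT it was at 5.64, 8.79 and 8.61 in control and at 4.00, 3.19 and 1.39 with EGCG, and it fell by 0.82 (SE 0.14, limma adjusted p = 2.91e-04). The first control library stood well under the other 2, and without it Foxo1 fell by 1.10, whereas without the second control library it fell by 0.54. Foxo1 in BAT on day 4 was at 7.82, 8.47 and 9.06 in control and at 6.33, 6.20 and 6.36 with EGCG. These groups did not overlap, but the difference of -0.33 was not called (95% interval -0.64 to -0.03, limma adjusted p = 0.0697), and it was called with quantile normalization (-0.40) and with voom on the recovered reads (-0.38), as well as without either WAT day 8 control library (limma adjusted p = 0.00401 and 0.00408). Foxo1 in BAT on day 8 was at 17.2, 16.7 and 15.5 in control and at 5.30, 5.73 and 5.25 with EGCG, and it fell by 1.46 (limma adjusted p = 1.46e-06). The BAT day 8 control mean of 16.9 stood apart from the other 7 groups, which lay between 8.15 and 3.60. BAT day 4 control, WAT day 8 control and BAT day 4 EGCG overlapped in turn, as did WAT day 4 EGCG and BAT day 8 EGCG.

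Slc2a4 (ENSMUSG00000018566.7, chromosome 11, 69756045 to 69761690, minus strand) encodes GLUT4, the transporter that insulin moves to the cell surface. The WAT values on day 4 were 10.9, 8.55 and 12.98 in control and 1.23, 1.29 and 1.06 with EGCG, and it fell by 2.24 (SE 0.17, limma adjusted p = 7.89e-07). On day 8 in WAT it was at 39.3, 57.7 and 49.6 in control and at 0.830, 0.497 and 0.219 with EGCG, and it fell by 4.88 (limma adjusted p = 8.07e-10). The lowest of these EGCG values is from the library dominated by 5 genes and was 0.531 after median-ratio scaling, beside 0.750 and 0.453. In BAT on day 4 Slc2a4 was at 17.0, 22.3 and 23.2 in control and at 1.92, 1.92 and 2.53 with EGCG, and it fell by 2.81 (limma adjusted p = 1.31e-07). In BAT on day 8 it was at 125, 127 and 117 in control and at 1.57, 1.58 and 1.56 with EGCG, and it fell by 5.62 (limma adjusted p = 9.88e-11). Each of the 12 control libraries was above each of the 12 EGCG libraries. The order of the means was BAT day 8 control, WAT day 8 control, BAT day 4 control, WAT day 4 control, BAT day 4 EGCG, BAT day 8 EGCG, WAT day 4 EGCG and WAT day 8 EGCG, and no neighbours overlapped in replicates 1 and 2.

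The 8 genes of an adipocyte marker list (Adipoq, Plin1, Fabp4, Lipe, Cidec, Lpl, Retn, Cfd) fell with EGCG in the same comparisons as Slc2a4, with 8 of 8 called lower in each of the 4 and none at 0 in any group. Their summed FPKM in replicates 1 and 2 went from 3572 to 3925 in control to 1064 to 1116 with EGCG in WAT on day 4, and from 6173 to 6994 to 623 to 688 in WAT on day 8. In BAT it went from 6069 to 7024 to 1448 to 1504 on day 4, and from 10957 to 11062 to 435 to 444 on day 8. In these bulk samples fewer adipocytes and less RNA per adipocyte cannot be told apart, for Slc2a4 or for any gene here. Slc2a4 is also a muscle gene. Of a list of 12 skeletal muscle genes none was at 0 in any group, and 8 were tested. Their summed values were 119 to 122 in BAT day 8 control and 43.7 to 46.9 with EGCG. Mb alone had a mean of 54.8 in BAT day 8 control and led the sum there. In WAT on day 8 the sum was 49.8 to 54.6 in control and 50.3 to 54.6 with EGCG. In WAT on day 4 that sum was higher with EGCG, at 119 to 124 against 76.1 to 78.4, and in BAT on day 4 it was 22.0 to 25.6 against 17.3 to 26.1. Of the 8 tested muscle genes, 5 were called higher with EGCG and none lower in WAT on day 4. In WAT on day 8, 1 was higher and 3 lower, or none and 4 with median-ratio scaling. In BAT none was higher, and 1 was lower on day 4 and 6 on day 8.

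Markers of other cells moved too. Of all genes 34.4% and 44.7% were called higher with EGCG in WAT on days 4 and 8, and 27.9% and 46.5% in BAT. Those called lower were 19.3% and 18.9% in WAT and 20.6% and 26.1% in BAT. Of the 5 endothelial genes 4 or 5 were called higher in each comparison. With median-ratio scaling 4 were higher in WAT on each day, and 5 and 3 in BAT, while 1 was lower in WAT on day 8. Their sums in replicates 1 and 2 were 11.03 to 21.6 in control libraries and 28.6 to 37.9 in EGCG libraries. The 4 smooth muscle genes were called higher in 4 and 3 of 4 in BAT on days 4 and 8, with sums of 93.9 to 119 against 674 to 831 and of 386 to 451 against 1311 to 1471. In WAT they were 4 of 4 lower on day 4 and 2 higher and 2 lower on day 8. Their WAT sums were 154 to 180 in control against 75.5 to 77.0 with EGCG on day 4, and 316 to 438 against 638 to 648 on day 8. The 6 macrophage genes, 5 of them tested, were 4 higher on day 4 and 5 lower on day 8 with EGCG in both depots. The 8 progenitor genes, 7 of them tested, were 3 lower and 2 higher in WAT and 1 lower and 2 higher in BAT on day 4, and 5 and 4 lower and 1 and 1 higher on day 8. On day 4 their sum was higher with EGCG, at 626 to 637 against 417 to 449 in control in WAT. In BAT on day 4 it was 636 to 682 against 451 to 537. On day 8 in WAT the sum went from 1366 to 1452 in control to 967 to 981 with EGCG. On day 8 in BAT it was 614 to 618 in control and 621 to 626 with EGCG. The part of these cells in the changes of the member genes, Akt1 included, was not tested.

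**Figure D3:**
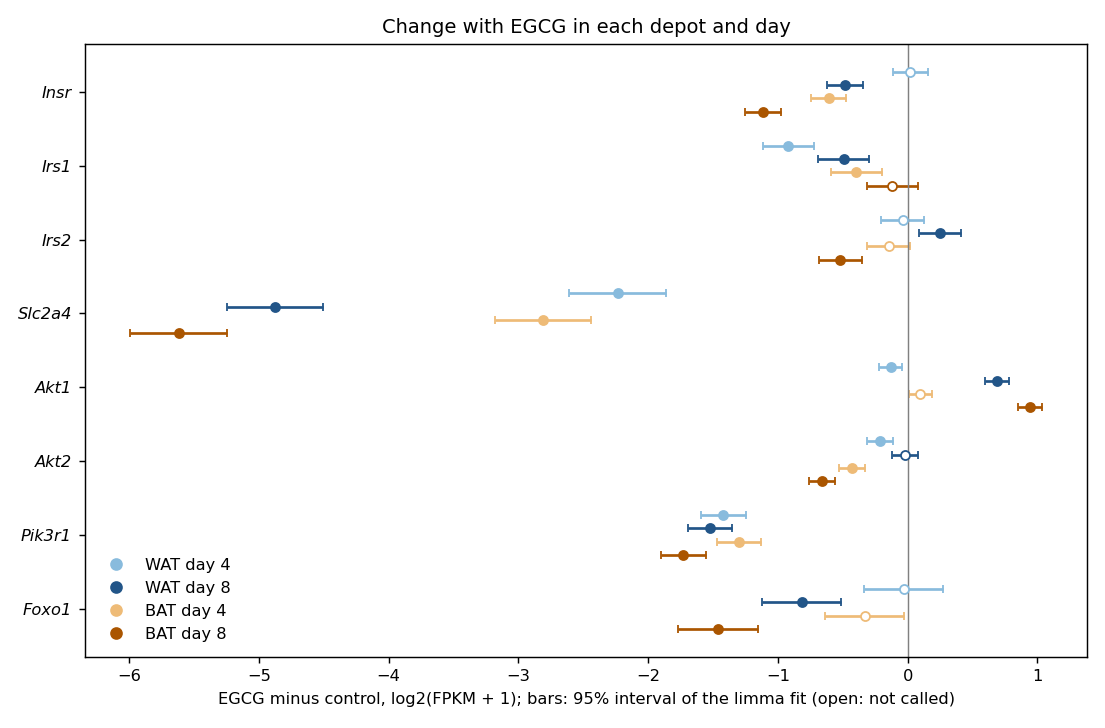
Change with EGCG of each gene (vertical axis), as EGCG minus control of log2(FPKM + 1) (horizontal axis), in WAT and BAT on days 4 and 8. Points are limma estimates from 2 against 2 libraries with 95% intervals, filled where called and open where not. Slc2a4 lies between -5.62 and -2.24, Pik3r1 between -1.73 and -1.30, and Akt1 is at 0.69 and 0.94 on day 8.

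Between day 4 and day 8, control cells gained Slc2a4 and cells with EGCG did not. In control cells it rose by 2.19 in WAT (SE 0.17, limma adjusted p = 5.42e-07) and by 2.63 in BAT (limma adjusted p = 6.77e-08). With EGCG it differed by -0.18 in BAT (95% interval -0.55 to 0.19, limma adjusted p = 0.387) and was called lower in WAT at -0.45 (limma adjusted p = 0.0385), a call lost with voom on the recovered reads (limma adjusted p = 0.234) and when any of 7 of the 16 libraries was left out. Of the 8 adipocyte markers 6 were called higher and 1 lower on day 8 in WAT control and 7 higher in BAT control, whereas with EGCG 7 were lower in WAT and 8 in BAT. Of the 8 skeletal muscle genes tested, 8 were higher in BAT both in control and with EGCG, and 5 and 7 were lower and 1 and 1 higher in WAT. Their part in the day changes was not tested. Of the 8 genes, 2 rose and 2 fell in WAT control cells, against 61.0% of all genes called, 27.7% higher and 33.2% lower. In BAT control cells 5 rose and 2 fell, against 69.2% of all genes called, 28.7% higher and 40.4% lower. With EGCG 3 rose and 5 fell in WAT (59.5% of all genes called, 31.8% higher and 27.7% lower), and 3 rose and 3 fell in BAT (58.0%, 29.7% and 28.2%).

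Irs2 fell from day 4 to day 8 in all 4 series: by 1.49 in WAT control, by 0.69 in BAT control, by 1.20 in WAT with EGCG and by 1.06 in BAT with EGCG, with limma adjusted p of at most 6.00e-06. Akt2 rose in all 4, by 0.28, 0.50, 0.48 and 0.27 in the same order (limma adjusted p of at most 3.95e-04). Irs1 rose in BAT, by 0.71 in control and by 0.99 with EGCG, and in WAT with EGCG by 0.32 (limma adjusted p = 0.00998), but in WAT control its difference of -0.11 was not called (95% interval -0.31 to 0.09, limma adjusted p = 0.306). Akt1 rose with EGCG, by 0.88 in WAT and 0.65 in BAT. In control cells Akt1 differed by 0.06 in WAT (limma adjusted p = 0.213) and was called lower by 0.20 in BAT, which was -0.05 and not called with median-ratio scaling (limma adjusted p = 0.329). Foxo1 rose in BAT control cells by 0.97 (limma adjusted p = 6.10e-05) and fell in WAT with EGCG by 0.54 (limma adjusted p = 0.00537). Insr rose in BAT control cells by 0.23 and fell with EGCG by 0.47 in WAT and 0.27 in BAT. Pik3r1 fell with EGCG by 0.32 in WAT and 0.36 in BAT. In BAT control cells Pik3r1 differed by 0.07 and was not called, but with median-ratio scaling it was called higher. In WAT control cells it fell by 0.22, a call lost with median-ratio scaling (limma adjusted p = 0.0590) and with quantile normalization. That call was also lost without either WAT day 4 control library or WAT day 8 control replicate 1. With single libraries left out the difference was -0.25 to -0.19. Each of 3 other calls was lost without 1 library: Insr in BAT control without day 8 replicate 1 (limma adjusted p = 0.0540), Irs1 in WAT with EGCG without day 4 replicate 1 (0.0826) and Foxo1 in WAT with EGCG without day 8 replicate 2 (0.0572). Foxo1 in WAT control differed by 0.24 and was not called, but without day 8 replicate 1 it was called at 0.52 (limma adjusted p = 6.83e-04), and without day 8 replicate 2 it was at -0.04.

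Between depots, control BAT cells held more of most of these messenger RNAs on day 8. There 7 of the 8 genes were higher in BAT and none lower, against 53.6% of all genes called, 31.6% higher and 22.0% lower. The cell type markers differed there too: 5 of 8 adipocyte genes and 4 of the 8 tested skeletal muscle genes were called higher in BAT and none lower, and 5 of the 7 tested progenitor genes lower and none higher, and their part was not tested. With median-ratio scaling 1 adipocyte gene was called lower. Endothelial genes were 3 of 5 lower and none higher, and macrophage genes 2 of 5 tested lower and none higher. Smooth muscle genes were 2 of 4 higher and none lower. Slc2a4 was higher by 1.38 (limma adjusted p = 3.45e-05), Foxo1 by 1.15, Irs2 by 0.70, Akt2 by 0.61, Insr by 0.56, Irs1 by 0.45 and Pik3r1 by 0.24. The last call was lost with median-ratio scaling (limma adjusted p = 0.0607) and quantile normalization (limma adjusted p = 0.386), and without replicate 1 of BAT or WAT control (limma adjusted p = 0.188 and 0.103). Akt1 was the exception, at -0.0024 (95% interval -0.09 to 0.09, limma adjusted p = 0.967), and was called lower in BAT at -0.15 with quantile normalization (limma adjusted p = 0.0103). On day 4, 5 genes were higher and 1 lower in BAT, against 55.8% of all genes called, 41.4% higher and 14.4% lower. Adipocyte genes were 7 higher and 1 lower, 6 of 8 tested skeletal muscle genes were lower, and progenitor genes were 2 higher and 3 lower. With median-ratio scaling progenitor genes were 2 higher and 5 lower. Smooth muscle genes were 4 of 4 lower, endothelial genes 1 higher and 3 lower of 5, and macrophage genes 4 of 5 tested higher and none lower. The part of these cells was not tested. Irs1 was the lower one among the members, by 0.38 (limma adjusted p = 0.00414), so that its depot difference had opposite signs on the 2 days. Slc2a4 was higher by 0.94, Akt2 by 0.39 and Insr by 0.36, and these calls held with median-ratio and quantile scaling. Akt1 (0.26) and Foxo1 (0.42) were higher as deposited but not with median-ratio scaling (0.09 and 0.28), where all genes no longer carried the shift of 0.15 toward BAT, and Irs2 and Pik3r1 were then called lower in BAT, by 0.26 and 0.21. The Foxo1 call was also lost without BAT control replicate 2 or either WAT control library (limma adjusted p of up to 0.109).

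The change with EGCG itself differed between depots or days for several members, as tested by the difference of 2 changes. Between days in WAT 4 members had a more positive change on day 8 and 3 a more negative one (49.4% of all genes called, 29.7% higher and 19.7% lower), and in BAT 1 and 6 did (55.4%, 34.7% and 20.6%). The fall of Slc2a4 was larger on day 8, by 2.64 in WAT (limma adjusted p = 6.53e-06) and by 2.81 in BAT (limma adjusted p = 2.50e-06). Akt1 changed by 0.82 more on day 8 in WAT and by 0.85 more in BAT, and Foxo1 by -0.79 and -1.13. Between depots on day 4, 2 members had a more positive and 2 a more negative change in BAT (28.1% of all genes called, 12% higher and 16.1% lower), and on day 8, 2 and 5 did (39.2%, 19.4% and 19.7%). These counts of members called, 7 between days in WAT and 4 and 7 between depots, depended on single libraries. The first was 4 without WAT day 4 EGCG replicate 1 or WAT day 8 control replicate 2, the second 2 without WAT day 4 control replicate 2, and the third 4 without WAT or BAT day 8 EGCG replicate 1. Insr fell more in BAT, by 0.63 on day 4 (limma adjusted p = 3.46e-04) and by 0.63 on day 8 (limma adjusted p = 1.91e-04). Irs2 differed by -0.77 and Akt2 by -0.64 between depots on day 8. For Slc2a4 the depot difference on day 8 was -0.74 (limma adjusted p = 0.0290), but it was -0.23 with a pseudocount of 0.1 (limma adjusted p = 0.594) and -0.16 with voom on the recovered reads (limma adjusted p = 0.867), so a larger fall in BAT was not established. On day 4 it was -0.57 and not called (limma adjusted p = 0.0965), but it was called without either WAT day 8 control library (limma adjusted p = 0.0363 and 0.0365). For Pik3r1 no depot difference was called, at 0.12 on day 4 (95% interval -0.12 to 0.37) and -0.20 on day 8 (95% interval -0.45 to 0.04).

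Of 69 further genes of the pathway in 8 lists, 65 were tested. With EGCG 29 were higher and 19 lower in WAT on day 4, 35 and 16 in WAT on day 8, 23 and 17 in BAT on day 4, and 32 and 20 in BAT on day 8, and their median changes of 0.14, 0.21, 0.07 and 0.15 were close to the medians of all genes. With median-ratio scaling the split was 16 and 26, 18 and 24, 22 and 20, and 24 and 25. Over all genes tested, as deposited, 34.4% were called higher and 19.3% lower in WAT on day 4, and 44.7% and 18.9% on day 8. In BAT the shares were 27.9% and 20.6% on day 4, and 46.5% and 26.1% on day 8. The list of transcription factors tied to the Slc2a4 gene had the lowest medians in all 4 comparisons, at -0.75, -1.24, -1.33 and -2.19, with 5, 6, 5 and 5 of 8 lower and 3, 2, 2 and 2 higher. Pparg, the nuclear receptor that drives adipocyte differentiation, fell by 1.52 and 2.67 in WAT and by 1.74 and 3.51 in BAT on days 4 and 8. Cebpa, a partner of Pparg in that program, fell by 2.29 and 2.69 in WAT and by 1.72 and 2.98 in BAT. Srebf1, the lipogenic factor SREBP1, was among the 3 lowest of the pathway genes in BAT on day 4, at -1.78.

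Among other glucose transporters Slc2a1, the gene of GLUT1, which takes up glucose without insulin, rose with EGCG in each comparison. In WAT its mean FPKM went from 30.3 to 145 on day 4 (log2 change 2.22) and from 31.9 to 96.5 on day 8 (1.58), and in BAT from 33.8 to 84.2 on day 4 (1.30) and from 41.2 to 67.0 on day 8 (0.69). On day 8 Slc2a4 exceeded Slc2a1 per length in control cells, at 48.5 against 31.9 in WAT and 126 against 41.2 in BAT, whereas with EGCG Slc2a1 stood at 96.5 against 0.664 and at 67.0 against 1.58. Slc2a3, the gene of GLUT3, rose in WAT on day 4 by 2.36, from 1.10 to 9.81. On day 8 it fell in BAT by 1.08 and was not called in WAT (0.06, limma adjusted p = 0.722). Slc2a8, the gene of GLUT8, rose by 0.50 in WAT and 0.33 in BAT on day 4, fell by 0.63 in BAT on day 8, and was not called in WAT on day 8 (-0.04, limma adjusted p = 0.722). With median-ratio scaling 1 of these 3 transporters was called higher and 1 lower in WAT on day 8.

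Other members of the pathway that led the changes had distinct roles. Igf1r, the receptor of insulin-like growth factor 1 and a close relative of Insr, was among the 3 highest in WAT on day 8 (1.05), BAT on day 4 (0.75) and BAT on day 8 (1.14), where Insr fell. In BAT on day 8 its mean went from 7.78 to 18.3 FPKM while that of Insr went from 19.9 to 8.67, and the same exchange of order took place in WAT on day 8, from 7.89 to 17.4 against 13.1 to 9.12. Pik3r3, another regulatory subunit of PI3-kinase, rose by 1.45 in BAT on day 8, from 3.07 to 10.1, where Pik3r1 fell from 68.6 to 20.0. Of 5 other PI3-kinase subunits 1 and 3 were called higher in WAT on days 4 and 8, and 1 and 4 in BAT. None was called lower in 3 comparisons, and 1 was in WAT on day 8. Of all genes 19.3% and 18.9% were called lower in WAT on days 4 and 8, and 20.6% and 26.1% in BAT. With median-ratio scaling 1 subunit was called lower on day 8 in each depot, and 1 in WAT and 3 in BAT higher. Socs3, a suppressor of cytokine and insulin signalling, rose by 1.94 in WAT and by 0.89 in BAT on day 4. Its list of 12 negative regulators was mixed. On day 4, 3 were higher and 5 lower in WAT, and 3 and 4 in BAT. On day 8, 4 were higher and 2 lower in WAT, and 4 and 5 in BAT. With median-ratio scaling 3 and 7 were so in WAT and 3 and 5 in BAT on day 4, and 1 and 6, and 4 and 5, on day 8. In the list of GLUT4 vesicle traffic 4, 4, 2 and 4 of 15 genes fell and 8, 10, 6 and 7 rose, beside 34.4%, 44.7%, 27.9% and 46.5% of all genes called higher. With median-ratio scaling 5, 4, 3 and 5 were called lower and 4, 7, 6 and 6 higher. Sort1, the gene of sortilin, which sorts GLUT4 into its storage vesicles, fell in WAT by 1.40 on day 4 and by 2.44 on day 8. Rhoq, the gene of the small GTPase TC10, rose by 0.85 in WAT on day 8, and Tbc1d1, the gene of a Rab GTPase-activating protein that AKT phosphorylates, rose by 1.29 in BAT on day 8. Pde3b, the phosphodiesterase through which insulin restrains lipolysis, fell by 3.54 in BAT on day 8, from 60.0 to 4.23 FPKM.

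**Figure D4:**
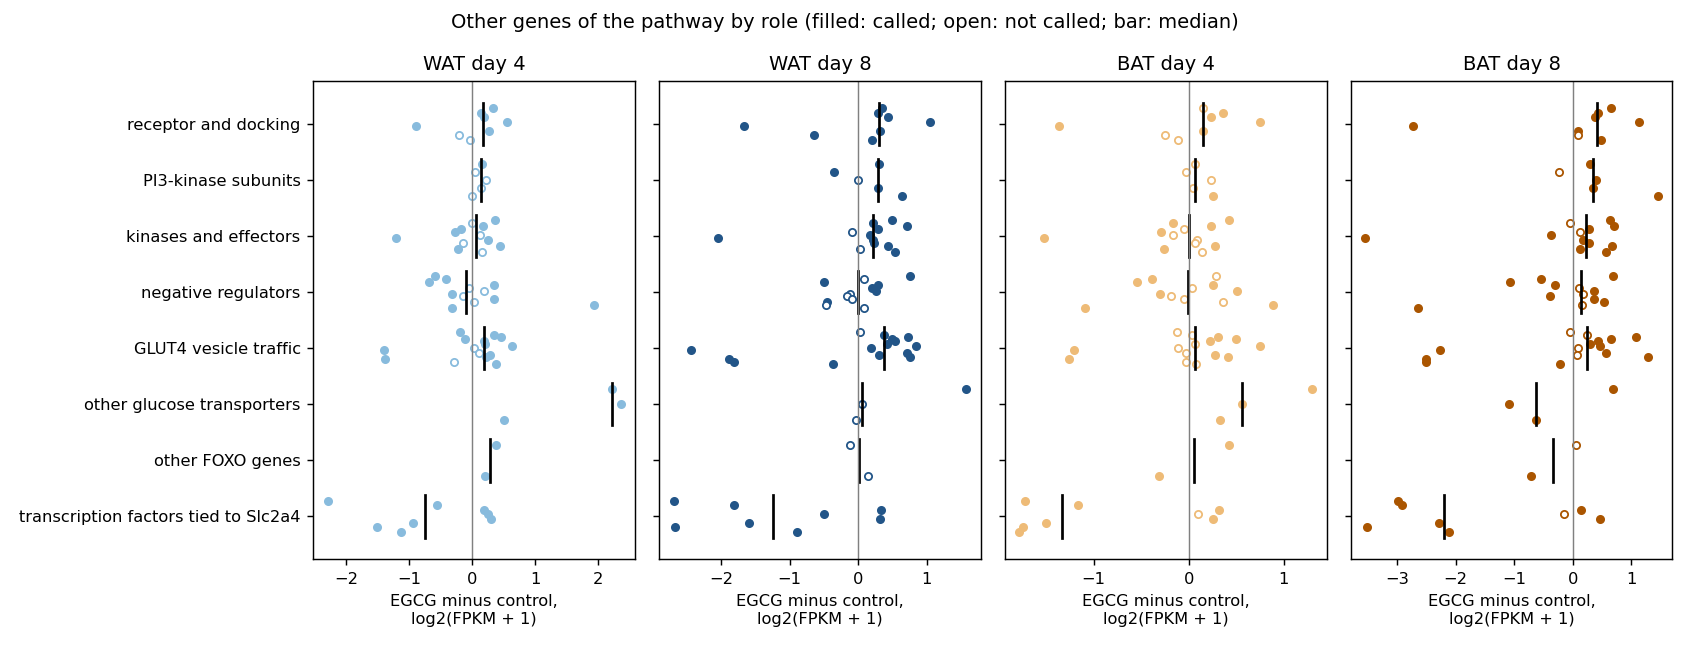
Change with EGCG (EGCG minus control, log2(FPKM + 1), horizontal axes with a scale of their own in each panel) of the 65 tested pathway genes that are not among the 8 members, by list (vertical axis), in each depot and day. Each point is a gene, filled where called, and bars are list medians. The medians of the transcription factor list run from -0.75 to -2.19, and the 3 other glucose transporters all rose on day 4 in both depots, while on day 8 in BAT 1 rose and 2 fell.

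Over the 16 libraries of replicates 1 and 2, the genes whose log2(FPKM + 1) followed each member most closely differed between members. For Slc2a4 they were Paqr9 (Pearson r = 0.99) and Fasn (0.99), fatty acid synthase. For Pik3r1 they were Reep6 (0.99) and Odz4 (0.98), for Insr Scd2 (0.97), a fatty acid desaturase, and Pnpla8 (0.97), and for Foxo1 Pla2g12a (0.97) and Lpin1 (0.96), an enzyme of triglyceride synthesis. For Akt1 they were Ppp1r14b (0.98) and Pfn1 (0.98), the actin-binding protein profilin, and for Akt2 Hsd17b4 (0.97), a peroxisomal enzyme of fatty acid oxidation, and Matn2 (0.97). For Irs2 they were Pde4d (0.98), a phosphodiesterase of cyclic AMP, and Uhrf1bp1 (0.98), and for Irs1 Tcf7l2 (0.96) and Ecm2 (0.92). Among the members themselves, Slc2a4 had r of 0.88 with Pik3r1, 0.85 with Foxo1 and 0.82 with Insr, but -0.10 with Irs2 and -0.50 with Akt1. The 16 libraries form 8 groups of 2 with a shared treatment, day and depot, so these values describe group patterns and carry no test.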

How the data were processed

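RNA of 24 libraries was measured by RNA sequencing. The authors deposited FPKM values in 2 separately made tables, of replicates 1 and 2 and of replicate 3. Their processing notes name FastQC 0.11.9, HISAT2 2.2.0, HTSeq 0.11 and mm9, and whether counting used strand is not given in the sources used here. Gene lengths were those of the longest transcript in GENCODE vM1 for all 37310 genes, and with them each FPKM value gave back a whole number of reads (100% within 0.01). Genes overlapping a member on the other strand had at most 12 reads.

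Genes with an FPKM of at least 1 in at least 2 of the 16 libraries of replicates 1 and 2 (14095) were fitted as log2(FPKM + 1) with limma 3.58.1 in R 4.3.3 (eBayes with trend, 1 mean per group). Residual degrees of freedom were 8, or 11.4 after moderation. Two-sided p-values of each of 14 contrasts were corrected by Benjamini-Hochberg over all genes tested, and calls were made at 0.05. The fit was also run on simulated data in which few genes changed, only in WAT day 8 EGCG, and the bulk of genes did not shift. That run cannot decide between the scalings. Replicates 1 and 2 differed by more than sampling, with a median squared difference of 1.62 to 3.90 against 0.455. The members, gene lists and rules were chosen with earlier results of these data known. All 8 members are named, and of the 69 other pathway genes the 3 highest and 3 lowest called in each EGCG comparison. The 3 other glucose transporters tested are described beyond that rule. Alternatives were other scalings (median-ratio, quantile), pseudocount, filters, no trend, voom on the recovered reads, a replicate block, leaving out each library, and both tables with the table as a term. The fit of both tables as deposited was added after seeing the data.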

Additional observations from a re-analysis of the deposited data

Results flagged for a closer look

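Each of the following changes with EGCG differed between depots or between days by a limma test of the difference itself (adjusted p under 0.05, replicates 1 and 2). Differences between depots are the BAT change minus the WAT change, and differences between days are the day 8 change minus the day 4 change, in log2(FPKM + 1). No sample was tested as standing apart within a group, because groups had 3 libraries.

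Insr differed between depots by -0.63 on day 4 and by -0.63 on day 8, and between days by -0.50 in WAT and by -0.50 in BAT. Irs1 differed between depots by 0.52 on day 4 and 0.38 on day 8, and between days by 0.43 in WAT. The day 8 depot value was lost with quantile normalization (limma adjusted p = 0.0759) and with no filter on low values (0.0740). Irs2 differed between depots by -0.77 on day 8, and between days by 0.29 in WAT and by -0.37 in BAT, so that its day difference had opposite signs in the 2 depots. The WAT value was lost with both other scalings (limma adjusted p = 0.0714 and 0.0913), with no filter (0.0740) and with no trend (0.0504).

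Slc2a4 differed between days by -2.64 in WAT and by -2.81 in BAT, and between depots by -0.74 on day 8. The depot call was lost with quantile normalization (-0.53, limma adjusted p = 0.0926), a pseudocount of 0.1 (-0.23, 0.594), voom on the recovered reads (-0.16, 0.867) and no filter (0.0720). Akt1 differed between depots by 0.23 on day 4 and 0.26 on day 8, and between days by 0.82 in WAT and 0.85 in BAT. Akt2 differed between depots by -0.21 on day 4 and -0.64 on day 8, and between days by 0.19 in WAT and -0.23 in BAT. For Akt2 the value of day 4 and the WAT value were lost with median-ratio scaling (limma adjusted p = 0.210 and 0.121), the WAT value also with quantile normalization (0.482), and the value of day 4 with no trend (0.0521). Pik3r1 differed between days by -0.43 in BAT. Foxo1 differed between depots by -0.64 on day 8, and between days by -0.79 in WAT and by -1.13 in BAT. Its depot call was lost with no filter (limma adjusted p = 0.0560).

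Several of these calls rested on single libraries of replicates 1 and 2. Of the 16 libraries left out in turn, 9 ended the call of Irs2 between days in WAT, 6 each those of Slc2a4 and Irs1 between depots on day 8, 5 each those of Akt2 between depots on day 4 and between days in WAT, 3 that of Foxo1 between depots on day 8, 2 that of Irs1 between days in WAT, and 1 that of Akt1 between depots on day 4 (WAT day 4 control replicate 2, 0.19, limma adjusted p = 0.0539). The highest limma adjusted p among them was 0.156, for Irs2 between days in WAT without WAT day 4 control replicate 2, where the difference was 0.21.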

How the results depend on the processing

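Of the log2 changes of the 8 genes over 14 contrasts (112 values), 108 kept direction and side of the threshold with voom on the recovered reads, 111 with a pseudocount of 0.1, 104 with no filter, 112 with a stricter filter, 110 with no trend, 97 with median-ratio scaling and 98 with quantile normalization. With both tables and the table as a term it was 94 with median-ratio scaling, 66 as deposited, and 103 as deposited without WAT day 8 EGCG replicate 3, the library in which 5 genes took most reads. When each of the 16 libraries was left out in turn, 1716 of the 16 times 112 values did so.

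Replicate numbers did not pair the samples. Over 28 pairs of groups the correlation of same-numbered deviations was between -0.079 and 0.081. With a replicate block all 112 values and the members called in every contrast (for EGCG 5 in WAT and 5 in BAT on day 4, and 7 and 7 on day 8) kept direction and side.

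The directions that turned were of small differences or came with replicate 3. For Insr with EGCG in WAT on day 4, 0.02 became -0.11 with median-ratio scaling, -0.055 with quantile normalization, and -0.11 and -0.12 with median-ratio scaling of both tables, with and without WAT day 8 EGCG replicate 3. With the same pair of fits, Akt1 in BAT control between days (-0.20) became 0.0032 and 0.00064, and the day 4 depot difference of Irs2 (-0.11) became 0.033 and 0.034. With both tables as deposited, Irs2 with EGCG in WAT on day 8 became -0.16 from 0.25, Akt1 of BAT against WAT on day 8 became 0.013, the day 8 depot difference of Pik3r1 became 0.24 from -0.20, and the WAT day differences of Irs2 and Akt2 became -0.11 and -0.24 from 0.29 and 0.19. Without WAT day 8 EGCG replicate 3 that fit turned Akt2 with EGCG in WAT on day 8 to 0.0079 and left Akt1 of BAT against WAT on day 8 at 0.013.

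With both tables as deposited the limma calls among the members dropped from 5 to 3 for EGCG on day 4 in WAT and in BAT, from 4 to 2 and 7 to 4 between days in WAT and BAT control, from 8 to 5 and 6 to 3 between days with EGCG, from 6 to 1 between depots on day 4, and from 7 to 3 and 7 to 2 for the day differences in WAT and BAT. For the depot differences they dropped from 4 and 7 to 0 and 0, with 2 and 3 at an unadjusted p under 0.05. Without WAT day 8 EGCG replicate 3 each of these counts was within 1.5 times the value reported. Genes called with EGCG in WAT on day 4 dropped from 7567 to 3081, and those of the other pathway genes from 48 to 16. With no filter the day 8 depot difference had 4 members called in place of 7.

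Leaving out single libraries gave ranges that crossed 0 for EGCG changes of Insr (-0.072 to 0.12) and Irs2 (-0.12 to 0.043) in WAT on day 4 and of Irs1 in BAT on day 8 (-0.24 to 0.00072). Between days they did so for Insr (-0.063 to 0.12) and Foxo1 (-0.037 to 0.52) in WAT control and Pik3r1 in BAT control (-0.024 to 0.16), and between depots for Pik3r1 on day 4 (-0.14 to 0.042) and Akt1 on day 8 (-0.032 to 0.027). Members called ranged from 2 to 5 and from 4 to 7 for the depot differences on days 4 and 8, and from 4 to 7 for the day difference in WAT. Differences whose 95% interval crosses 0 were not detectable with 2 tested libraries per group, and a left-out library leaves a group with 1 that is assumed to vary like the others.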
